A study of Mus musculus with 14 samples.

Results

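The Wnt ligands, frizzled receptors and secreted Wnt inhibitors of adult mouse brain cells were read from 14 expression arrays, as 45 of the 18193 genes measured. The members were chosen by gene symbol, namely symbols that start with Wnt, Fzd, Sfrp or Dkk and a digit, with Frzb, Wif1, the co-receptors Lrp5 and Lrp6, the feedback target Axin2, and the nuclear factors Lef1 and Tcf7l1. They comprise 19 ligands, 10 frizzled receptors, 2 co-receptors, 10 secreted inhibitors, 3 targets or nuclear factors and Fzd10os, a transcript from the strand opposite Fzd10 that the symbol rule takes in. Each gene is given by its brightest probe set, a group of array probes for 1 transcript, and the 45 genes had 87 probe sets. Tcf7, a further factor of the rule, was not analysed here.

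Wnts are lipid-modified secreted proteins that bind frizzled receptors together with the co-receptors Lrp5 and Lrp6. In the canonical branch this stabilises beta-catenin, which acts with the TCF/LEF factors on target genes, among them the feedback inhibitor Axin2. Proteins of the Sfrp family, to which Frzb belongs, and Wif1 bind Wnts outside the cell, while Dkk1, Dkk2 and Dkk4 bind the co-receptors. In the adult subependymal zone, the layer along the lateral ventricle where new neurons are born, Wnt signals are known to act on stem and progenitor cells.

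All cells came from mice aged 8 weeks that carry hGFAP-eGFP, a transgene in which the human GFAP promoter drives enhanced green fluorescent protein (GFP). Of the 5 sorted groups, 4 came from the subependymal zone (SEZ). SEZ_GFPprom was sorted for GFP and the surface protein prominin (n = 4), SEZ_GFP for GFP (n = 2), SEZ_Prom for prominin (n = 2) and SEZ_CD24 for the surface protein CD24 (n = 2). DIEC_GFP was sorted for GFP from the diencephalon, a region outside this neurogenic layer (n = 4). The labels call the first 3 groups neural stem cells, SEZ_CD24 ependymal cells and DIEC_GFP astrocytes. They do not say whether SEZ_GFP left out prominin-positive cells, nor whether each biological replicate is another animal. A p-value here therefore sets a difference against the spread of these arrays only.

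Each sort had signal of marker genes of several cell types, which cannot tell a mixture of cells from cells that express several markers. Markers of ependymal cells, the ciliated lining of the ventricle, had the lowest summed intensity in the group labelled ependymal, at 309 to 471 in SEZ_CD24. Their sum was 12910 to 22007 in SEZ_GFPprom, 654 to 1218 in SEZ_GFP, 515 to 871 in SEZ_Prom and 4882 to 6834 in DIEC_GFP. SEZ_CD24 had the neuroblast markers, among them Cd24a, the gene of the CD24 protein, at 19992 to 30974. Their sum was 10360 to 12495 in SEZ_GFPprom, 20647 to 21177 in SEZ_GFP, 8122 to 10468 in SEZ_Prom and 6338 to 8340 in DIEC_GFP. The oligodendrocyte marker sum was 36334 to 37099 in SEZ_Prom and 32718 to 46822 in DIEC_GFP, against 4751 to 16721 over the arrays of the other 3 groups. Across genes, the correlation of 2 arrays was r = 0.942 to 0.979 within a group and r = 0.845 to 0.952 between groups. Levels are linear array intensities with no physical unit, and they are compared between groups for 1 gene, not between genes.

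The promoters of 5 genes that differed between groups show the DNA next to the starts of a ligand, of 2 receptors and of 2 inhibitors described here. Each runs 5' to 3' from 250 bases before to 50 bases after the transcription start, from RefSeq on GRCm38.p6. Capitals mark the TCF/LEF motif, searched as CTTTGA or CTTTGT on either strand (TCAAAG and ACAAAG on the other).

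Wnt4 promoter, chr4:137277385-137277684, plus strand: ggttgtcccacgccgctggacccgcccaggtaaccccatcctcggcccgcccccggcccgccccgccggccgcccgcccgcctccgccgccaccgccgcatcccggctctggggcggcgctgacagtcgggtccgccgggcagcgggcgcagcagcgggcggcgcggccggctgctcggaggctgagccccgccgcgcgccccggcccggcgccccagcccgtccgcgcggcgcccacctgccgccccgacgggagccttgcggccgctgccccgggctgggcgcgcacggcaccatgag
Fzd1 promoter, chr5:4758167-4758466, minus strand: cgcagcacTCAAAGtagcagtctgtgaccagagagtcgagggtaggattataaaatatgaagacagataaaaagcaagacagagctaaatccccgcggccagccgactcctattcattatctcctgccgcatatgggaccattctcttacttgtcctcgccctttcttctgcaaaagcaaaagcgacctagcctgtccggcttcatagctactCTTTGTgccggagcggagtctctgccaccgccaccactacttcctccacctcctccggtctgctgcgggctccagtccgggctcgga
Fzd5 promoter, chr1:64737701-64738000, minus strand: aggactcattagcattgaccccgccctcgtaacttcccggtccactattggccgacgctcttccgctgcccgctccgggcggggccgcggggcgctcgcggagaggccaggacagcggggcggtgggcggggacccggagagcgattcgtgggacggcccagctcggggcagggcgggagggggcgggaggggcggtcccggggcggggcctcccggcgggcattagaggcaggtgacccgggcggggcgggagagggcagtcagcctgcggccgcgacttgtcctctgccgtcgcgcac
Sfrp5 promoter, chr19:42202203-42202502, minus strand: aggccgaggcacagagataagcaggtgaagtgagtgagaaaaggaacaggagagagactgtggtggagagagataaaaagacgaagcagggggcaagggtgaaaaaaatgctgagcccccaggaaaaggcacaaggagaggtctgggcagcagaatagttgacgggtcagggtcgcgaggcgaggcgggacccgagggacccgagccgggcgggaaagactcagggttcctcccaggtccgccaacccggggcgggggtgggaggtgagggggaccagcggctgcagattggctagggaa
Frzb promoter, chr2:80447347-80447646, minus strand: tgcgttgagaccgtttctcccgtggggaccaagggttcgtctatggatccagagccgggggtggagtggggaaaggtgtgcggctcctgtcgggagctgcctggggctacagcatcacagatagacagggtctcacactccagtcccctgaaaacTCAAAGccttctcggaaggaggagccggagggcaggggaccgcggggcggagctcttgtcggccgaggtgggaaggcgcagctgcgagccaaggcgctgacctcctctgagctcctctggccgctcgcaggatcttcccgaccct

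The Fzd1 promoter held 2 matches and the Frzb promoter 1, and those of Wnt4, Fzd5 and Sfrp5 held none. Of the 36 promoters listed for 30 of the members, 30.6% held the motif, against 31.2% of all 32851 promoters of that length. A match to these letters is not a binding site, and its absence concerns these letters in these windows alone.

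The first question was which members differ anywhere among the 5 groups, tested with limma's moderated F test. Of the 45 members 12 passed at an adjusted p under 0.05 (26.7%), against 25.8% of all genes, so the share of members that passed was near the background. They were the ligands Wnt4, Wnt5a, Wnt7a and Wnt8a, the receptors Fzd1, Fzd5, Fzd6 and Fzd8, and the inhibitors Dkk3, Frzb, Sfrp1 and Sfrp5. A further 3 members, Wnt3a, Wnt8b and Wif1, passed in 1 of the 6 comparisons of groups, and 30 passed in none of these tests. By group mean SEZ_GFPprom was the highest group for 15 of the 45 members, DIEC_GFP for 10, SEZ_GFP for 9, SEZ_CD24 for 6 and SEZ_Prom for 5. The lowest group was SEZ_CD24 for 22 members. These counts take in members of very low intensity, such as Dkk1, with a mean of 7.75 in both SEZ_GFPprom and DIEC_GFP. They were not set beside the same counts over all genes, so they show no trait particular to the members. In 5 members, Wnt3, Lrp5, Dkk1, Dkk4 and Wif1, the mean stayed under an intensity of 10 in every group. On each array 25.4% to 25.7% of all probe sets stood at 10 or less, and a difference at that level rests on background.

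**Figure D1:**
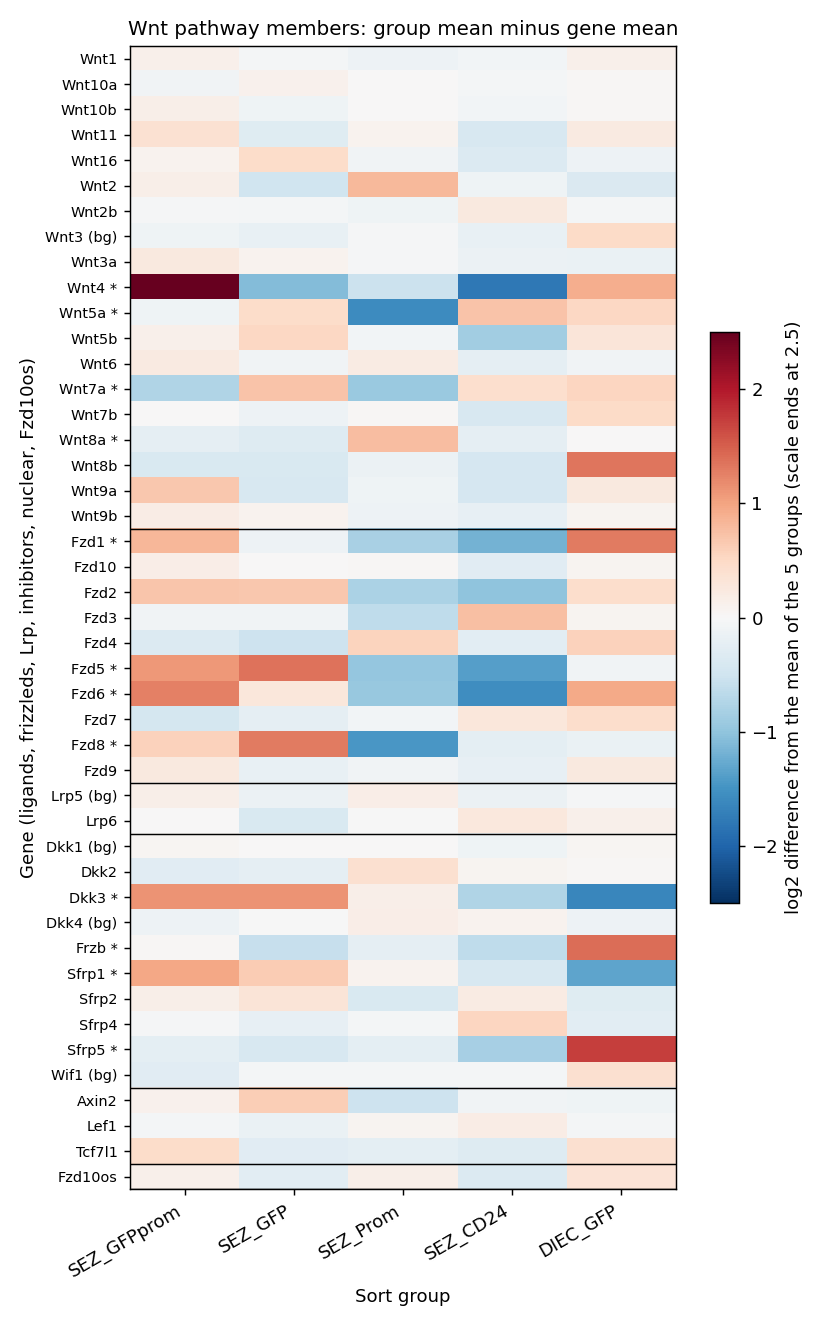
Level of each of the 45 members in the 5 groups, as group mean log2 intensity minus the mean of the 5 group means, on a colour scale from -2.5 to 2.5. Rows run by role, an asterisk marks the 12 genes that passed the F test, and (bg) marks the 5 genes near background; Wnt4 stands out in SEZ_GFPprom, and Frzb and Sfrp5 in DIEC_GFP.

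Among the ligands, Wnt4 was highest in the cells sorted for both GFP and prominin. Wnt4, known for its part in kidney and gonad development, stood at 1734, 1179, 764 and 1450 in SEZ_GFPprom, at 147 and 70 in SEZ_GFP, at 143 and 153 in SEZ_Prom, at 114 and 34 in SEZ_CD24, and at 442, 307, 648 and 312 in DIEC_GFP. By the brightest Wnt4 probe set, every SEZ_GFPprom array was above every array of the other groups. Every DIEC_GFP array was above those of the other 3 SEZ groups. The group means were log2 10.26 ± 0.51 (SD, n = 4) in SEZ_GFPprom, 6.66 ± 0.76 (n = 2) in SEZ_GFP, 7.21 ± 0.07 (n = 2) in SEZ_Prom, 5.96 ± 1.23 (n = 2) in SEZ_CD24 and 8.67 ± 0.51 (n = 4) in DIEC_GFP. The F test gave an adjusted p of 0.000429. In the other, dimmer Wnt4 probe set SEZ_GFPprom was also above the other 3 SEZ groups without overlap. There it overlapped DIEC_GFP (log2 difference 0.49), and DIEC_GFP overlapped SEZ_Prom.

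Wnt4 rose in SEZ_GFPprom in all 4 comparisons of that group. It was 19.7-fold higher than in SEZ_CD24 (log2 4.30, adjusted p = 0.000249), and this passed under all alternatives tried. The difference from SEZ_GFP was 12.1-fold (adjusted p = 0.00159; 0.0502 without SEZ_GFP replicate 2), and that from SEZ_Prom was 8.29-fold (adjusted p = 0.00404; 0.0557 without SEZ_Prom replicate 1). Against DIEC_GFP it was 3.01-fold (log2 1.59, SE 0.41, adjusted p = 0.0210). This did not pass once SEZ_GFPprom replicate 1 (0.0561) or 4 (0.0515) or DIEC_GFP replicate 2 (0.0621) was left out, or with the mean of its probe sets (0.0537). Nor did it pass with a measure of RNA quality, the 3' to 5' ratio of control transcripts, as a covariate (0.320). On the log2 scale that ratio was 4.94 ± 0.18 in SEZ_GFPprom (SD, n = 4) and 5.40 ± 0.29 in DIEC_GFP (n = 4). In the comparison of GFP sorts, Wnt4 was 4.01-fold lower in SEZ_GFP than in DIEC_GFP (adjusted p = 0.0218), which was lost without SEZ_GFP replicate 2 (0.268).

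Wnt4 and the ependymal markers moved together over these groups. The summed intensity of the 8 ependymal markers was 22007, 16634, 12910 and 20207 in the SEZ_GFPprom arrays, in the same replicate order as Wnt4, and 5078, 4882, 6834 and 5760 in the DIEC_GFP arrays. Its highest value in the other 3 groups was 1218. Foxj1, the transcription factor that drives the making of motile cilia, was at 575 to 1086 in SEZ_GFPprom, 48 to 69 in the other SEZ groups and 144 to 288 in DIEC_GFP. All 8 markers were higher in SEZ_GFPprom than in SEZ_GFP, SEZ_Prom and SEZ_CD24, and 7 of 8 were higher than in DIEC_GFP. The part of ependymal cells in the Wnt4 difference was not tested, and in sorted pools a change in the number of cells of a type cannot be told apart from a change in RNA per cell.

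**Figure D2:**
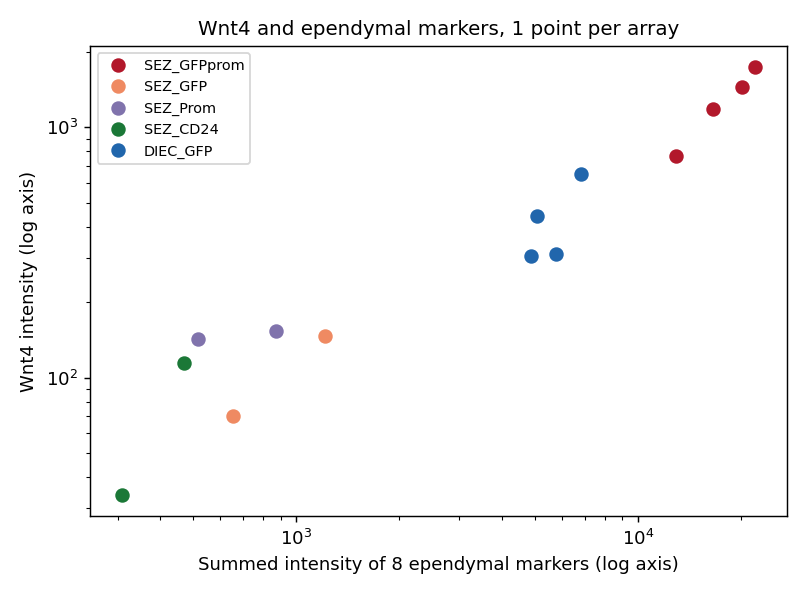
Intensity of Wnt4 (vertical, log scale) against the summed intensity of 8 ependymal markers (horizontal, log scale), with 1 point per array and a colour per group. The 4 SEZ_GFPprom arrays lie at the upper right and the 4 DIEC_GFP arrays below them, and in the 6 arrays of the other groups the marker sum is at most 1218.

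Wnt7a, a ligand known to act on neural stem cells and on brain vessels, ran the other way. It stood at 188, 315, 114 and 133 in SEZ_GFPprom, at 497 and 457 in SEZ_GFP, at 110 and 215 in SEZ_Prom, at 279 and 538 in SEZ_CD24, and at 392, 463, 647 and 276 in DIEC_GFP. The F test gave an adjusted p of 0.0363. Wnt7a fell in SEZ_GFPprom against DIEC_GFP by 1.29 on the log2 scale (SE 0.37, 2.45-fold lower, adjusted p = 0.0333), although SEZ_GFPprom replicate 2 lay above DIEC_GFP replicate 4. It missed the threshold when replicate 1, 3 or 4 of SEZ_GFPprom or replicate 1, 2 or 3 of DIEC_GFP was left out (adjusted p 0.0586 to 0.0843), and when only those groups were fitted (0.0549). With the RNA quality covariate it did not pass either (log2 -1.03, adjusted p = 0.295), nor with the mean of its probe sets (log2 -0.29), 1 of which had the opposite sign. In all, the difference from DIEC_GFP passed under 14 of 24 alternatives. Against SEZ_GFP, where the groups did not overlap, the log2 difference was -1.46 (adjusted p = 0.131).

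By its brightest probe set, Wnt5a, the best known ligand of the beta-catenin-independent branch, was lowest in the prominin sort. It stood at 33, 49, 48 and 41 in SEZ_GFPprom, at 49 and 80 in SEZ_GFP, at 18 and 13 in SEZ_Prom, at 41 and 137 in SEZ_CD24, and at 58, 137, 52 and 43 in DIEC_GFP (F test, adjusted p = 0.0428). Another probe set, nearly as bright (mean log2 5.20, beside 5.57), was low in SEZ_GFPprom as well. Its group means were log2 4.0 in SEZ_GFPprom, 5.9 in SEZ_GFP, 3.7 in SEZ_Prom, 6.7 in SEZ_CD24 and 6.0 in DIEC_GFP. There the SEZ_GFPprom arrays overlapped those of SEZ_Prom alone. By the brightest probe set, Wnt5a was 4.90-fold lower in SEZ_Prom than in SEZ_CD24 (log2 -2.29, SE 0.58, adjusted p = 0.0441). The call was lost without any 1 of the SEZ_GFPprom, SEZ_GFP or SEZ_Prom arrays, SEZ_CD24 replicate 2 or DIEC_GFP replicate 1 (adjusted p 0.0515 to 0.286), when only those groups were fitted (0.239), with the RNA quality covariate (log2 -1.41, adjusted p = 0.296) and with values under 10 set to 10 (0.0720).

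The remaining ligands that passed a test had low intensities. Wnt8b, a ligand of the developing forebrain, stood at 17, 14, 14 and 10 in SEZ_GFPprom, at 14 and 13 in SEZ_GFP, at 11 and 23 in SEZ_Prom, at 16 and 11 in SEZ_CD24, and at 72, 54, 15 and 67 in DIEC_GFP. In 3 of 4 DIEC_GFP arrays it was above all SEZ arrays, and against DIEC_GFP it was 3.29-fold lower in SEZ_GFPprom (log2 -1.72, adjusted p = 0.0217). It did not pass when replicate 4 of SEZ_GFPprom (0.0568) or replicate 1 (0.0604) or 2 (0.0612) of DIEC_GFP was left out. Without DIEC_GFP replicate 4 it lay at the threshold, which did not pass either. It was also lost with the RNA quality covariate (0.135) and when only those groups were fitted (0.0526), and with the mean of its probe sets the log2 difference was -0.65 (adjusted p = 0.0126). In all, the difference passed under 18 of 24 alternatives. The F test of Wnt8b missed the threshold (adjusted p = 0.0504).

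Wnt3a, a canonical ligand, stood at 21, 25, 22 and 21 in SEZ_GFPprom, at 19 and 21 in SEZ_GFP, at 19 and 18 in SEZ_Prom, at 18 and 16 in SEZ_CD24, and at 17, 16, 18 and 16 in DIEC_GFP. The SEZ_GFPprom arrays did not overlap those of DIEC_GFP, with a difference of 1.33-fold (log2 0.41, SE 0.12, adjusted p = 0.0380) that was lost without any SEZ_GFPprom or SEZ_GFP array or DIEC_GFP replicate 1, 2 or 4 (0.0531 to 0.0988). It was also lost with the RNA quality covariate (0.159), when only those groups were fitted (0.0736) and without the dimmest genes (0.0864). In all, this difference passed under 11 of 24 alternatives. Wnt8a, a ligand of the early embryo, stood at 8, 6, 8 and 6 in SEZ_GFPprom, at 7 and 6 in SEZ_GFP, at 15 and 13 in SEZ_Prom, at 8 and 6 in SEZ_CD24, and at 8, 8, 10 and 7 in DIEC_GFP. Both SEZ_Prom arrays were the highest, by log2 -1.01 in SEZ_GFPprom against SEZ_Prom (adjusted p = 0.0151) and 1.01 in SEZ_Prom against SEZ_CD24 (adjusted p = 0.0360). With values under 10 set to 10 these log2 differences were -0.48 and 0.48, and the calls were lost without SEZ_Prom replicate 1 (0.145 and 0.172) or 2 (0.0685 and 0.115). The second call was also lost without either SEZ_GFP array (0.0517) or SEZ_CD24 replicate 2 (0.217), with the RNA quality covariate (0.144) and when only those groups were fitted (0.185).

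The other 13 ligands passed no test by limma, and 3 of them had an unadjusted p under 0.05 in any comparison. Wnt7b, a ligand close to Wnt7a, stood at 96 to 127 in SEZ_GFPprom, 98 to 111 in SEZ_GFP, 115 to 118 in SEZ_Prom, 63 to 118 in SEZ_CD24 and 99 to 244 in DIEC_GFP. Wnt9a ranged from 22 to 180 over the arrays, with its highest values in DIEC_GFP replicate 3 (180) and SEZ_GFPprom replicate 1 (143). The other 11, namely Wnt1, Wnt2, Wnt2b, Wnt3, Wnt5b, Wnt6, Wnt9b, Wnt10a, Wnt10b, Wnt11 and Wnt16, were at 52 or less on every array.

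**Figure D3:**
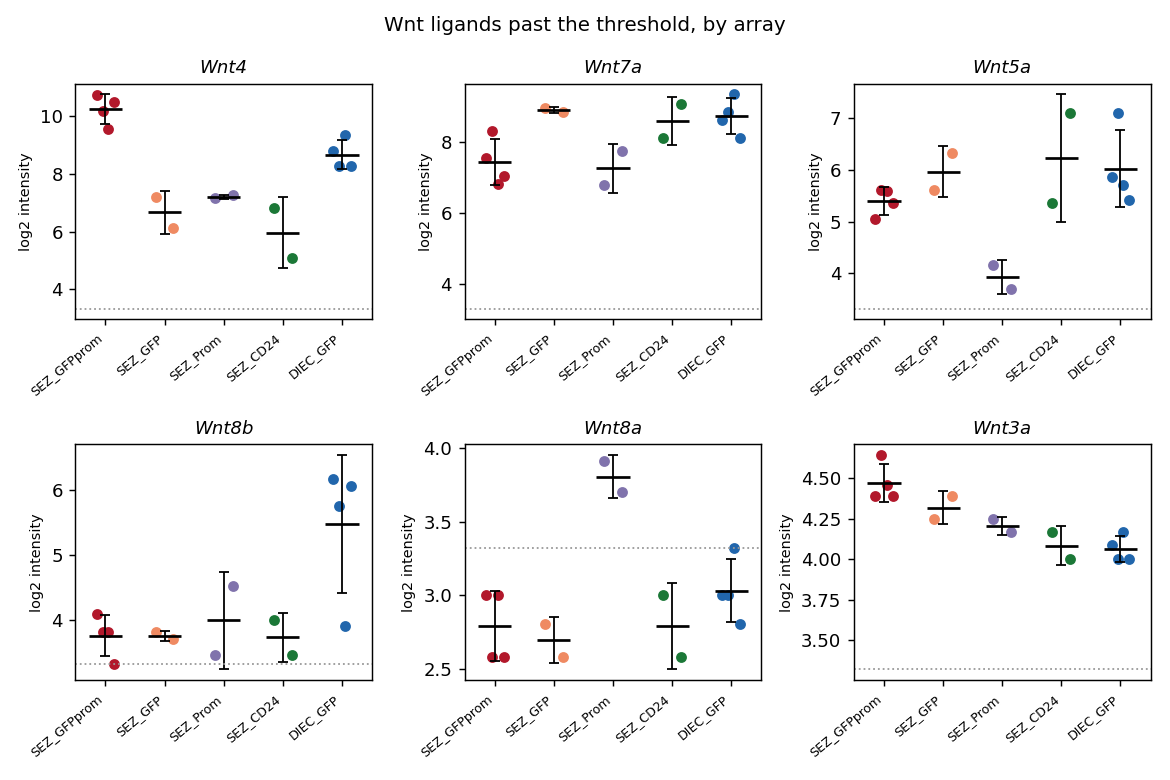
Log2 intensity of the 6 ligands that passed a test, with 1 point per array, a line at the group mean, bars for the SD, groups from SEZ_GFPprom on the left to DIEC_GFP on the right, and a dotted line at an intensity of 10. Only for Wnt4 do all SEZ_GFPprom arrays lie above all other arrays, and for Wnt8a the SEZ_Prom arrays alone lie above the dotted line.

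Among the receptors most calls lay within the subependymal zone. Of the 10 frizzleds, Fzd5, Fzd6 and Fzd8 were higher in SEZ_GFPprom than in SEZ_Prom, and Fzd1, Fzd5 and Fzd6 were higher than in SEZ_CD24. Fzd8 was also higher in SEZ_GFP than in DIEC_GFP. Over all members, 4 were higher and 1 was lower in SEZ_GFPprom against SEZ_Prom (11.1%), where 7.16% of all genes passed, 4.40% higher and 2.76% lower. Against SEZ_CD24 5 were higher and none was lower (11.1%), where 13.7% of all genes passed, 8.98% higher and 4.74% lower. At an unadjusted p under 0.05 in limma there were 15 members, a count not set beside that over all genes. The median log2 difference of the 10 frizzleds was 1.01 against SEZ_Prom and 0.64 against SEZ_CD24, where all genes had medians of 0.04 and 0.10. None of the 10 passed in SEZ_GFPprom against DIEC_GFP or SEZ_GFP by limma, with 2 and 0 at an unadjusted p under 0.05.

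Marker lists of other cell types differed in the same comparisons as the frizzleds. Of 7 measured choroid plexus markers 4 were lower in SEZ_GFPprom than in SEZ_Prom and 4 were lower than in SEZ_CD24, with sums of 294 to 7563 in SEZ_GFPprom, 12791 to 13250 in SEZ_Prom and 9137 to 14723 in SEZ_CD24. The microglia sum was 2321 to 4232 in SEZ_GFPprom, 5779 to 7773 in SEZ_Prom and 12655 to 25408 in SEZ_CD24, and 0 of 8 markers passed against SEZ_Prom and 5 were lower against SEZ_CD24. Of 7 oligodendrocyte markers 4 were lower in SEZ_GFPprom than in SEZ_Prom and 3 were higher than in SEZ_CD24. Of the astrocyte markers 4 of 8 were higher in SEZ_GFPprom than in SEZ_CD24, and of the neuroblast markers 5 of 8 were lower. All 8 ependymal markers were higher in both comparisons, as given above. The part of these cells in the frizzled differences was not tested.

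Fzd5, a receptor needed in eye and placenta development, was high in both SEZ sorts for GFP. It stood at 432, 793, 967 and 421 in SEZ_GFPprom, at 645 and 856 in SEZ_GFP, at 162 and 135 in SEZ_Prom, at 112 and 110 in SEZ_CD24, and at 328, 272, 121 and 498 in DIEC_GFP (F test, adjusted p = 0.00637). All 6 arrays of these GFP sorts were above the 4 arrays of SEZ_Prom and SEZ_CD24. In SEZ_GFPprom it was 5.51-fold higher than in SEZ_CD24 (adjusted p = 0.00696; 0.0577 without SEZ_CD24 replicate 2) and 4.13-fold higher than in SEZ_Prom (adjusted p = 0.0276). The second call was lost without SEZ_GFPprom replicate 2 (0.0611) or 3 (0.0504), without SEZ_Prom replicate 1 (0.137) or 2 (0.176), with the mean of its probe sets (0.0967), with the RNA quality covariate (0.0697) and with values under 10 set to 10 (0.0504). In all, the call against SEZ_Prom passed under 16 of 24 alternatives. Against DIEC_GFP the log2 difference was 1.17 in SEZ_GFPprom (adjusted p = 0.0634) and 1.46 in SEZ_GFP (adjusted p = 0.0758).

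Fzd6, a receptor of the planar polarity pathway that orients hair follicles, was lowest in the same sorts. It stood at 198, 137, 294 and 490 in SEZ_GFPprom, at 155 and 104 in SEZ_GFP, at 35 and 84 in SEZ_Prom, at 42 and 30 in SEZ_CD24, and at 199, 328, 164 and 148 in DIEC_GFP (F test, adjusted p = 0.00596). In SEZ_GFPprom it was 7.04-fold higher than in SEZ_CD24 (adjusted p = 0.00409; 0.0510 without SEZ_CD24 replicate 2) and 4.61-fold higher than in SEZ_Prom (adjusted p = 0.0231; 0.257 without SEZ_Prom replicate 1 and 0.0923 when only those groups were fitted). Its other probe sets were dim, 1 had the opposite sign, and with their mean the log2 differences were 0.98 and 0.74. In all, the call against SEZ_Prom passed under 21 of 24 alternatives.

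Fzd1, a receptor for canonical Wnts, was at 209, 272, 489 and 138 in SEZ_GFPprom, at 121 and 136 in SEZ_GFP, at 120 and 53 in SEZ_Prom, at 59 and 64 in SEZ_CD24, and at 340, 410, 524 and 197 in DIEC_GFP (F test, adjusted p = 0.00949). Its promoter, given above, was the one of the 5 with 2 motif matches. Fzd1 was 4.05-fold higher in SEZ_GFPprom than in SEZ_CD24 (log2 2.02, adjusted p = 0.0202), which was lost without SEZ_CD24 replicate 1 (0.0963) or 2 (0.110) and when only those groups were fitted (0.0630), and which was log2 1.00 with the mean of its probe sets (adjusted p = 0.0295). SEZ_GFPprom against SEZ_Prom (log2 1.64, adjusted p = 0.0712) and SEZ_GFP against DIEC_GFP (log2 -1.43, adjusted p = 0.0849) missed the threshold.

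Fzd8, a receptor of the developing forebrain, was highest in SEZ_GFP. It stood at 82, 43, 69 and 40 in SEZ_GFPprom, at 108 and 80 in SEZ_GFP, at 11 and 17 in SEZ_Prom, at 25 and 40 in SEZ_CD24, and at 37, 24, 45 and 31 in DIEC_GFP (F test, adjusted p = 0.00349). It was 4.08-fold higher in SEZ_GFPprom than in SEZ_Prom (adjusted p = 0.00598; 0.0973 without SEZ_Prom replicate 1). In SEZ_GFP it was 2.79-fold higher than in DIEC_GFP (adjusted p = 0.0186; 0.172 without SEZ_GFP replicate 1, 0.0791 without replicate 2 and 0.0995 with the 3' to 5' ratio as covariate). With the mean of its probe sets both calls were lost (0.198 and 0.189).

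The remaining 6 frizzleds passed no test. Fzd2, a receptor with roles in palate and heart development, stood at 426 to 645 in SEZ_GFPprom, 485 and 552 in SEZ_GFP, 172 and 206 in SEZ_Prom, 89 and 296 in SEZ_CD24 and 195 to 871 in DIEC_GFP. The SEZ_GFPprom arrays were above those of SEZ_Prom and SEZ_CD24, with log2 differences of 1.48 (adjusted p = 0.147) and 1.70 (adjusted p = 0.0693). Fzd3, a guidance receptor of growing axons, ranged from 208 to 1259 by its brightest probe set (F test, adjusted p = 0.321). All 6 Fzd3 probe sets were lower in SEZ_Prom than in SEZ_CD24 (log2 -0.75 to -3.06). They were all higher in SEZ_GFPprom than in SEZ_Prom (log2 0.54 to 2.73), with some overlap of arrays. Fzd4, Fzd7, Fzd9 and Fzd10 ranged from 20 to 178. The co-receptor Lrp6 stood at 117 to 233 over the arrays (F test, adjusted p = 0.598), and Lrp5 at 7 to 11. Fzd10os, the opposite-strand transcript, stood at 27 to 68 and passed no test.

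**Figure D4:**
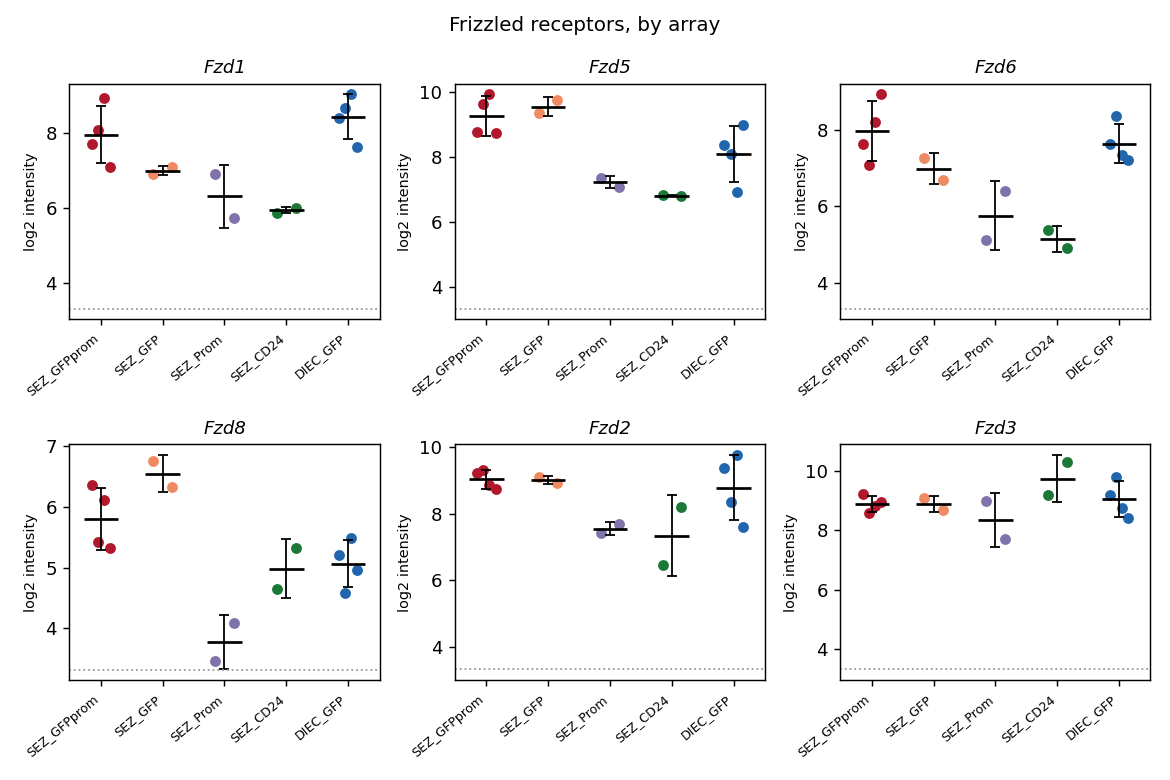
Log2 intensity of 6 frizzled receptors, Fzd1, Fzd5, Fzd6, Fzd8, Fzd2 and Fzd3, drawn as in the plot of the ligands. For Fzd5 the SEZ_GFPprom and SEZ_GFP arrays, at intensities of 421 to 967, all lie above the SEZ_Prom and SEZ_CD24 arrays, at 110 to 162.

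Among the secreted inhibitors the GFP sorts of the subependymal zone and of the diencephalon differed in both directions. Dkk3 and Sfrp1 were higher, and Sfrp5 and Frzb lower, in SEZ_GFPprom and in SEZ_GFP than in DIEC_GFP. The near-background Wif1 was also lower in SEZ_GFPprom. Over all members, 4 were higher and 5 were lower in SEZ_GFPprom against DIEC_GFP (20.0%), and 5 of these 9 were inhibitors. Of all genes 17.8% passed there, 10.1% higher and 7.78% lower. In SEZ_GFP against DIEC_GFP 3 members were higher and 3 were lower (13.3%), 4 of the 6 being inhibitors. Of all genes 12.7% passed there, 5.61% higher and 7.05% lower. These comparisons share the DIEC_GFP arrays, so the values of each are given on their own.

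Dkk3, a Dickkopf relative whose part in Wnt signalling is less settled than that of Dkk1, was the inhibitor with the lowest F test p. It stood at 961, 1411, 1207 and 1020 in SEZ_GFPprom, at 1422 and 915 in SEZ_GFP, at 659 and 511 in SEZ_Prom, at 470 and 208 in SEZ_CD24, and at 231, 157, 118 and 191 in DIEC_GFP (adjusted p = 0.000285). The 6 arrays of the SEZ sorts for GFP were at 915 or more and all DIEC_GFP arrays at 231 or less. Against DIEC_GFP, Dkk3 was 6.72-fold higher in SEZ_GFPprom (log2 2.75, SE 0.29, adjusted p = 0.000146) and 6.75-fold higher in SEZ_GFP than in DIEC_GFP (adjusted p = 0.000542). Both passed under all alternatives tried. Between SEZ_GFPprom and SEZ_GFP the log2 difference was -0.01, with a 95% interval from -0.77 to 0.76. Dkk3 was 3.64-fold higher in SEZ_GFPprom than in SEZ_CD24 (adjusted p = 0.00532; 0.0815 without SEZ_CD24 replicate 2), and against SEZ_Prom the log2 difference was 0.97 (adjusted p = 0.128).

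Sfrp1, a Wnt-binding protein of the developing brain, was likewise lowest in DIEC_GFP. It stood at 492, 554, 314 and 387 in SEZ_GFPprom, at 348 and 329 in SEZ_GFP, at 203 and 265 in SEZ_Prom, at 150 and 180 in SEZ_CD24, and at 99, 107, 38 and 144 in DIEC_GFP (F test, adjusted p = 0.00470). Every DIEC_GFP array was below every SEZ array. Sfrp1 was 4.89-fold higher in SEZ_GFPprom than in the DIEC_GFP sort (log2 2.29, adjusted p = 0.00147), which passed under all alternatives tried. In SEZ_GFP it was 3.88-fold higher than in DIEC_GFP (adjusted p = 0.0109), which was lost without SEZ_GFP replicate 1 (0.0855) or 2 (0.0901), when only those groups were fitted (0.0843) and with the 3' to 5' ratio as covariate (0.202).

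By their brightest probe sets, Sfrp5 and Frzb, which also bind Wnts, were highest in the diencephalon. Sfrp5 stood at 45, 43, 35 and 45 in SEZ_GFPprom, at 42 and 34 in SEZ_GFP, at 43 and 41 in SEZ_Prom, at 25 and 31 in SEZ_CD24, and at 158, 135, 393 and 91 in DIEC_GFP (F test, adjusted p = 0.00311). Against DIEC_GFP it was 3.98-fold lower in SEZ_GFPprom (log2 -1.99, adjusted p = 0.00301), which passed under all alternatives tried, and 4.40-fold lower in SEZ_GFP than in DIEC_GFP (adjusted p = 0.00674; 0.0892 without SEZ_GFP replicate 2, 0.0812 when only those groups were fitted and 0.143 with the 3' to 5' ratio as covariate). The other Sfrp5 probe set ran the other way. It stood at 45 to 48 in SEZ_GFPprom, 40 and 41 in SEZ_GFP and 31 to 40 in DIEC_GFP. There SEZ_GFPprom did not overlap DIEC_GFP (log2 difference 0.42). The brightest probe set was above it in DIEC_GFP (mean log2 7.38 against 5.11) but not in SEZ_GFPprom (5.38 against 5.53). Over the alternatives the limma adjusted p of the SEZ_GFPprom call reached 0.0499. With the mean of the probe sets the log2 differences were -0.79 and -0.95.

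Frzb stood at 19, 23, 20 and 21 in SEZ_GFPprom, at 13 and 14 in SEZ_GFP, at 23 and 13 in SEZ_Prom, at 13 and 13 in SEZ_CD24, and at 84, 73, 25 and 51 in DIEC_GFP (F test, adjusted p = 0.00756). All DIEC_GFP arrays were above all SEZ arrays. Against DIEC_GFP it was 2.55-fold lower in SEZ_GFPprom (log2 -1.35, adjusted p = 0.0151; 0.229 with the 3' to 5' ratio as covariate). In SEZ_GFP it was 3.92-fold lower than in DIEC_GFP (adjusted p = 0.00723), which was lost without SEZ_GFP replicate 1 (0.0666) or 2 (0.0682), when only those groups were fitted (0.0712) and with the covariate (0.216). With the mean of its probe sets, of which the other was near background, the log2 differences were -0.72 and -1.08.

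Several marker lists differed between the same sorts as the inhibitors. Of the neuroblast markers 7 of 8 were higher in SEZ_GFPprom than in DIEC_GFP, as were all 7 measured cell cycle genes, whose sum was 4157 to 6699 in SEZ_GFPprom, 8237 to 10094 in SEZ_GFP and 135 to 508 in DIEC_GFP. All 8 markers of oligodendrocyte progenitors were lower in SEZ_GFPprom than in DIEC_GFP, with sums of 1149 to 2108 in SEZ_GFPprom, 2673 to 2806 in SEZ_GFP and 10778 to 14265 in DIEC_GFP. The oligodendrocyte sum was 10585 to 16721 in SEZ_GFPprom, 4751 to 7232 in SEZ_GFP and 32718 to 46822 in DIEC_GFP. Of the 8 astrocyte markers 4 were lower in SEZ_GFPprom and 4 were lower in SEZ_GFP than in DIEC_GFP, with sums of 13400 to 14200 in SEZ_GFPprom, 11222 to 14813 in SEZ_GFP and 13422 to 28896 in DIEC_GFP. Their part in the differences of Dkk3, Sfrp1, Sfrp5 and Frzb was not tested. The prominin gate and the region both differ between SEZ_GFPprom and DIEC_GFP and cannot be told apart there.

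The other 6 inhibitors were low. Wif1, at 4 or 5 on every SEZ array and at 10, 5, 7 and 6 in DIEC_GFP, differed by -0.68 (log2, adjusted p = 0.0318) between SEZ_GFPprom and DIEC_GFP, a difference of 0 with values under 10 set to 10. It did not pass without replicate 1, 3 or 4 of SEZ_GFPprom or replicate 1 or 3 of DIEC_GFP (0.0612 to 0.0722), when only those groups were fitted (0.0843) or with the RNA quality covariate (0.389). In all, it passed under 13 of the 22 alternatives that held it. Dkk1 stood at 6 to 8, Dkk4 at 6 to 9, Dkk2 at 6 to 14 and Sfrp2 at 7 to 16 over the arrays. Sfrp4 was at 57 and 51 in SEZ_CD24 and at 25 to 44 on all other arrays, a log2 difference of -0.58 in SEZ_GFPprom against SEZ_CD24 (adjusted p = 0.146).

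**Figure D5:**
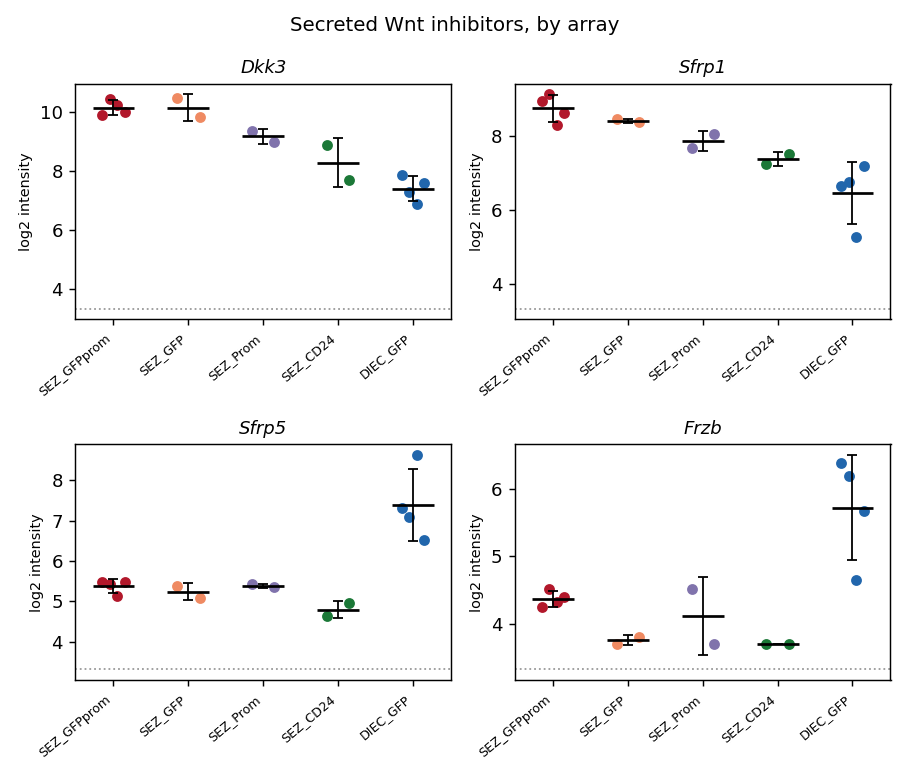
Log2 intensity of the secreted inhibitors Dkk3, Sfrp1, Sfrp5 and Frzb, drawn as in the plot of the ligands. Dkk3 and Sfrp1 are lower on the 4 DIEC_GFP arrays than on all SEZ_GFPprom and SEZ_GFP arrays, and Frzb and Sfrp5 are higher on them.

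Neither the feedback target Axin2 nor the nuclear factors Lef1 and Tcf7l1 passed in limma's F test or in any of the 6 comparisons, where 0 to 2 of them had an unadjusted p under 0.05. Axin2, which canonical Wnt signalling induces in many tissues, stood at 156, 137, 236 and 115 in SEZ_GFPprom, at 196 and 250 in SEZ_GFP, at 137 and 75 in SEZ_Prom, at 131 and 140 in SEZ_CD24, and at 143, 114, 171 and 115 in DIEC_GFP (F test, adjusted p = 0.193). Both SEZ_GFP arrays were above all DIEC_GFP arrays, with a log2 difference of 0.73 (95% interval 0.04 to 1.41, adjusted p = 0.169). In SEZ_GFPprom against DIEC_GFP the log2 difference was 0.21 (95% interval -0.34 to 0.77, adjusted p = 0.613). Lef1 stood at 12 to 28 over the arrays, with a log2 difference of 0.00 in SEZ_GFPprom against DIEC_GFP (95% interval -0.51 to 0.52). Tcf7l1, which acts mainly as a repressor, stood at 145 to 230 in SEZ_GFPprom, 103 and 125 in SEZ_GFP, 98 and 140 in SEZ_Prom, 90 and 138 in SEZ_CD24 and 131 to 233 in DIEC_GFP (F test, adjusted p = 0.0810). Another Tcf7l1 probe set, nearly as bright (mean log2 7.01, beside 7.24), was not tested on its own. It was log2 2.11 higher in SEZ_GFPprom and 1.12 higher in SEZ_Prom than in SEZ_CD24, without overlap of arrays. The tested probe set gave 0.78 and 0.07 there, so the absence of a call holds for that probe set.

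The 2 comparisons not yet counted held few calls among the members. In SEZ_GFPprom against SEZ_GFP Wnt4 was the only member that passed (2.22%), where 3.17% of all genes passed, 2.63% higher and 0.539% lower. In SEZ_Prom against SEZ_CD24 Wnt8a was higher and Wnt5a was lower (4.44%), where 5.53% of all genes passed, 3.43% higher and 2.10% lower.

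Other genes of the pathway, from a list of 59 of which 58 were measured, were read beside the members. In SEZ_GFPprom against DIEC_GFP 11 were higher and 9 lower (34.5%), beside 17.8% of all genes, 10.1% higher and 7.78% lower. Among them were Sostdc1, a secreted antagonist of BMPs and Wnts (log2 3.01, adjusted p = 0.000257), and Notum, which inactivates Wnts by removing their lipid (log2 1.86, adjusted p = 0.00529). Lower were Rspo3, a secreted enhancer of Wnt signals (log2 -2.62, adjusted p = 6.72e-05), Porcn, the enzyme that adds the lipid to Wnts (log2 -1.77, adjusted p = 0.000588), and Tle2, a co-repressor (log2 -2.70, adjusted p = 0.00247). Each of these 5 passed under all alternatives tried. Rspo3 was at log2 3.03 ± 0.26 in SEZ_GFPprom (SD, n = 4), a level near background, and at 5.64 ± 0.48 in DIEC_GFP (n = 4).

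In SEZ_GFP against DIEC_GFP 7 of the 58 were higher and 2 lower (15.5%, beside 12.7% of all genes), among them Notum (log2 2.43, adjusted p = 0.00410; 0.0575 without SEZ_GFP replicate 2), the kinase Csnk1e (log2 1.88, adjusted p = 0.000662) and Rspo3 (log2 -2.12, adjusted p = 0.000853). In SEZ_GFPprom against SEZ_GFP 1 was higher, Sostdc1 (log2 3.01, adjusted p = 0.00161), and 4 were lower (8.62%, beside 3.17% of all genes), among them Ror2, a receptor for Wnt5a, at low levels (log2 -1.49, adjusted p = 0.00971; 0.0502 without SEZ_GFP replicate 1 and 0.171 without replicate 2). Against SEZ_Prom 3 were higher in SEZ_GFPprom and none lower (5.17%, beside 7.16% of all genes), led by the glypican Gpc4 (log2 2.21, adjusted p = 0.00401; 0.0513 without SEZ_Prom replicate 2). Against SEZ_CD24 5 were higher and 6 lower (19%, beside 13.7% of all genes), with Cthrc1, a secreted protein that binds Wnts and frizzleds, and Gpc4 (log2 2.18, adjusted p = 0.00265) higher and Csnk1e lower (log2 -1.71, adjusted p = 0.00115). In SEZ_Prom against SEZ_CD24 1 was higher and 4 lower (8.62%, beside 5.53% of all genes), among them Csnk1e (log2 -1.87, adjusted p = 0.00639; 0.0503 without SEZ_CD24 replicate 2). Cthrc1 was at log2 6.92 ± 0.68 in SEZ_GFPprom (SD, n = 4) and near background in SEZ_CD24, at 3.29 ± 0.41 (n = 2), and with values under 10 set to 10 it differed by 3.46 (log2, adjusted p = 0.00698).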

How the data were processed

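RNA of sorted cells was measured on 14 Affymetrix mouse arrays. The deposited values are intensity values made by RMA, per the submitters' processing notes, with no version given, rounded to whole numbers, so low values move in coarse steps. Their log2 was taken with no pseudocount. Probe sets with 1 gene symbol in the platform table (34945 of 45101) gave 18193 genes, each by the probe set with the highest mean.

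The test was limma (version 3.58.1, R 4.3.3), in 1 fit of all arrays with a mean per group, as a moderated F test over the 5 groups and as 6 two-sided comparisons (first group minus second). Benjamini-Hochberg adjustment ran over all 18193 genes, and an adjusted p under 0.05 passed. Counts of members at an unadjusted p under 0.05 were not set beside such counts over all genes. They show no trait particular to the members. The fit was tried on simulated data with changes of log2 1, 2 and 3 in 200 of the 18193 genes. In SEZ_Prom against SEZ_CD24 it recovered 20.9%, 62.7% and 87.9% of them, and 8.1% of its calls were false. In SEZ_GFPprom against DIEC_GFP it recovered 46.3%, 79.1% and 93.9%, and 5.2% of its calls were false. A gene that passed no test may therefore still differ. In the measured data 1006 and 3247 genes passed in these 2 comparisons, so the simulated rates need not hold there. Members past the threshold in any test were described with every array, and up to 3 other pathway genes per comparison and direction could be named. Those printed are a part of them.

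Alternatives were quantile normalization, equal medians, leaving out the dimmest 25% of genes, averaging a gene's probe sets, no probe sets of shared sequence, values under 10 set to 10, fits of only the groups compared, a replicate block, the 3' to 5' ratio of control transcripts as a covariate, a trend and robust prior, and leaving out each array. The members, lists and comparisons were chosen with earlier results of these data known. No depth applies to arrays, and the number of arrays limits the precision.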

Additional observations from a re-analysis of the deposited data

Results flagged for a closer look

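In 90 groups of 4 arrays (45 genes in SEZ_GFPprom and in DIEC_GFP) 14 held a single array far from the others, where chance gives about 1 in 20 groups. Many of them are genes near background, where whole-number steps leave few values. In SEZ_GFPprom, Wnt5b stood at 52 on replicate 3, against 15, 13 and 15 on the other arrays, and Fzd9 at 41 on replicate 3, against 79, 74 and 72. Wnt2 stood at 9 on SEZ_GFPprom replicate 2, against 22, 24 and 21. Wnt1 stood at 13 on replicate 2, against 10 on each of the others. Near background in SEZ_GFPprom, Dkk1 was at 7 on replicate 4, Dkk2 at 7 and Wif1 at 5 on replicate 2, and Wnt3 at 4 on replicate 1, each 1 unit from the others.

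In DIEC_GFP, Wnt9a stood at 180 on replicate 3, against 30, 24 and 27 on the other arrays. Wnt3 was at 17 on replicate 2, against 5 or 6, and Wnt6 at 16 on replicate 2, against 24 or 25. Wnt10b was at 35 on replicate 4, against 33 on each of the others, Wnt16 at 10 on replicate 4, against 11, and Dkk1 at 7 on replicate 3, against 8. Of these genes Wif1 alone passed a test.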

How the results depend on the processing

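No difference of a member that passed the threshold changed sign under an alternative. Of 28 such differences 5 passed under every alternative: Dkk3 in both comparisons with DIEC_GFP, Sfrp1 and Sfrp5 in SEZ_GFPprom against DIEC_GFP, and Wnt4 in SEZ_GFPprom against SEZ_CD24. For Sfrp5 the other probe set, which was not an alternative on its own, had the opposite sign. The other 23 differences were lost under at least 1 alternative, though none under quantile normalization, equal medians or the trend and robust prior. With the 3' to 5' covariate 13 of 28 were lost, with fits of only the groups compared 11 and with the mean of the probe sets 5. In SEZ_GFPprom against DIEC_GFP the count was 9, and 5 in a fit of those groups and 3 with the covariate. In SEZ_GFP against DIEC_GFP it was 6, and 3 and 2. In SEZ_Prom against SEZ_CD24 it was 2, and 0 under both, with 6 members at an unadjusted p under 0.05 in limma's fit of all arrays, and 1 without the dimmest 25% of genes or with values under 10 set to 10. In SEZ_GFPprom against SEZ_CD24 it was 5, and 9 with the mean of the probe sets. The cause of these changes was not tested. Member counts under the alternatives were not set beside the same counts over all genes, so they show no trait particular to the members. The fits of only the groups compared used fewer arrays, and the part of this in the lost calls was not tested either.

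Leaving out each array gave 9 to 13 members in the F test, 4 to 9 in SEZ_GFPprom against DIEC_GFP (4 without SEZ_GFPprom replicate 4, and 5 without its replicate 1 or DIEC_GFP replicate 1 or 2) and 0 to 1 against SEZ_GFP (0 without SEZ_GFP replicate 2). It gave 0 to 6 against SEZ_Prom (0 without SEZ_Prom replicate 1 and 3 without replicate 2) and 2 to 8 against SEZ_CD24 (2 without SEZ_CD24 replicate 2 and 8 without DIEC_GFP replicate 3 or 4). It gave 1 to 8 in SEZ_GFP against DIEC_GFP (3 without SEZ_GFP replicate 1 and 1 without replicate 2) and 0 to 2 in SEZ_Prom against SEZ_CD24, with 0 when either array of SEZ_GFP or SEZ_Prom, or SEZ_CD24 replicate 2, was left out, and 1 without any SEZ_GFPprom array or DIEC_GFP replicate 1. A lone array left in a group was assumed to vary like the others. Nor were these counts set beside the same counts over all genes, so they show no trait particular to the members. The deviations of same-numbered arrays from their group means had r = -0.19 to 0.13 between groups. In a group of 2 arrays the 2 deviations mirror each other, so this cannot settle whether the numbers pair arrays. With a replicate block 4 of the 28 differences were lost. The paragraphs on single genes count these losses in their totals of alternatives but do not name them.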
